A study of Mus musculus with 9 samples.

Results

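The small heat shock protein genes described here are Cryab, Hspb1, Hspb2, Hspb3, Hspb6 and Hspb8, 6 of the 24624 genes measured in newborn mouse cerebral cortex. They were selected by gene symbol, and the family was chosen because Cryab lay above wild type in cortices that lack Fezf2 and below wild type in those that carry Fezf2-EnR. The values of Cryab in these comparisons are therefore a description and were not tested. A filter of a mean of at least 10 normalized reads over all libraries was passed by 4 of the 6 genes, and Hspb1 and Hspb2 fell below it.

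The study asked how FEZF2, a zinc finger transcription factor of deep-layer projection neurons, acts on gene expression in the cortex. Bulk RNA-seq was made from the cortex of single pups on postnatal day 0, with 3 libraries of Fezf2+/+ (bc201, bc202 and bc203), 4 of Fezf2-/- (bc204 to bc207) and 2 of Fezf2-/-; Fezf2-EnR (bc208 and bc209). The pups came from crosses of Fezf2+/- with Fezf2+/-;Fezf2-EnR mice and belonged to 3 litters, m1 (bc201, bc202, bc205, bc206), m2 (bc203, bc209) and m3 (bc204, bc207, bc208). The null allele carries a human placental alkaline phosphatase reporter in the Fezf2 locus, so both mutant groups hold it and Fezf2+/+ does not. Fezf2-EnR, the short name used below for the group with the transgene, is a bacterial artificial chromosome in which the DNA-binding part of FEZF2, joined to the repressor domain of engrailed, is driven by Fezf2 regulatory sequence. It is a single transgenic line, and no group holds the transgene on a wild-type background.

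Small heat shock proteins are chaperones that hold unfolding proteins in a soluble state without using ATP, and hand them to HSP70 for refolding or to degradation. They share a conserved alpha-crystallin domain and assemble into mixed oligomers. CRYAB (alpha-B crystallin) is a major protein of the lens, heart and skeletal muscle and in brain is best known from glial cells, where it binds intermediate filaments such as GFAP. HSPB1 is the classical heat-inducible member and acts on actin and protein aggregates, HSPB6 was first known from muscle, HSPB8 works with BAG3 in clearing aggregates, and HSPB2 and HSPB3 bind each other and are best known from muscle.

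The genes lie on 4 chromosomes in the GENCODE M21 annotation of GRCm38, whose gene identifiers matched 24595 of the 24624 rows. Cryab (ENSMUSG00000032060.10) spans chr9:50751325-50756636 on the plus strand and Hspb2 spans chr9:50751078-50752354 on the minus strand, so these neighbours overlap. Hspb1 lies at chr5:135887919-135889563 (plus), Hspb8 at chr5:116408491-116422864 (minus), Hspb3 at chr13:113662896-113663676 (minus) and Hspb6 at chr7:30552178-30555443 (plus). Their coding sequences run from 465 bases in Hspb3 to 630 in Hspb1, and that of Cryab has 528, for a protein of 175 residues.

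How far a read can be assigned to 1 gene of a family depends on how alike the genes are, so the most similar coding stretches are shown. Among all 15 pairs of the 6 genes, the longest run of identical coding bases was 16, between Cryab and Hspb1. The 60 spliced coding bases around that run are given 5′ to 3′, with the shared run in capitals. The Cryab stretch is coding bases 300 to 359 (GRCm38 chr9:50754610-50756326, plus strand, across an intron) and the Hspb1 stretch is coding bases 372 to 431 (chr5:135888430-135889103, plus strand, across an intron).
Cryab: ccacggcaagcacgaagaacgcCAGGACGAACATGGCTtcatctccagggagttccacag
Hspb1: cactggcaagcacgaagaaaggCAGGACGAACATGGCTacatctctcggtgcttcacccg
Beyond the run the stretches match only in part, and no pair of members shared a coding run as long as the 50 bases that the study's methods give for each end of a read.

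Other annotated genes shared more. Of the 1522 different 50-base words in Cryab transcripts, 203 (13.3%) also occurred in another gene, in each case in Hspb2 on the opposite strand. The overlap of their exons covers 252 bases, chr9:50751325-50751576, which is 17.0% of the exon bases of Cryab and 30.2% of those of Hspb2. Whether reads were counted by strand is not given in the sources used here, so Hspb2 and the overlapping end of Cryab cannot be told apart. Of the 1030 words of Hspb1, 516 (50.1%) occurred elsewhere, 503 of them in the processed copy Hsp25-ps1, which was not analysed here, and 394 in Gm9817, which held 10 reads over all libraries. The level of Hspb1 is uncertain for this reason. Hspb6 shared 101 of 2290 words (4.41%), with Proser3 and Gm38670, and Hspb3 and Hspb8 shared none.

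Heat shock factor HSF1 binds inverted repeats of the letters GAA, so promoters of the members were searched for GAANNTTC and TTCNNGAA, each of which reads the same on both strands. Promoter sequence from RefSeq (GRCm38.p6, 250 bases before to 50 after a start site) was matched for 4 of the 6 genes, Hspb1, Hspb3, Hspb6 (2 start sites) and Hspb8. GAANNTTC occurred in 4 of their 5 promoters and TTCNNGAA in none, while 7.86% of all 32851 promoters held the first and 8.52% the second. The matched stretches upstream of the start are given 5′ to 3′ on the gene's strand, with the match in capitals, for Hspb1 (chr5:135887776-135887855, plus, matches beginning 117 and 97 bases before the start), Hspb3 (chr13:113663867-113663926, minus, 224 bases before) and the second start of Hspb6 (chr7:30553155-30553214, plus, 120 bases before).
Hspb1: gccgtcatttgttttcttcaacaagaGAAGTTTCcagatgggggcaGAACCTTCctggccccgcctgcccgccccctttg
Hspb3: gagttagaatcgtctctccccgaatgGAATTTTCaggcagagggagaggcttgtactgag
Hspb6: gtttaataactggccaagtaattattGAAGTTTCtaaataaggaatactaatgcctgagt
In Hspb8 the match begins at transcribed base 3. These are matches of letters in a fixed window, and binding was not measured.

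The libraries held 18716575 to 25127623 reads, recovered from the deposited values, which were whole multiples of 1 read within 0.1 for 100% of values. Fezf2 itself was at 979 to 1232 normalized reads in Fezf2+/+, 193 to 242 in Fezf2-/- and 907 to 1001 in Fezf2-EnR, where reads of the transgene can be counted on the same gene. All 7 markers of cortical glutamatergic neurons passed the filter. The Xist transcript, made from the inactive X chromosome of females, was high in 1 of the 3 Fezf2+/+ libraries (bc201), in 0 of the 4 Fezf2-/- and in both Fezf2-EnR libraries, so sex and the step from Fezf2-/- to Fezf2-EnR cannot be told apart. The 3 comparisons share libraries pairwise. Over 16197 genes limma called 0.858% in Fezf2-/- vs Fezf2+/+, 0.117% in Fezf2-EnR vs Fezf2+/+ and 0.766% in Fezf2-EnR vs Fezf2-/- at an adjusted p under 0.05, and 10.8%, 19.3% and 16.9% had an unadjusted p under 0.05. With litter as a block, limma called 32 genes in place of 19 in Fezf2-EnR vs Fezf2+/+. DESeq2 on the recovered reads, without a litter block, called 315, 641 and 454 of the 16197 genes in the 3 comparisons, in the order given.

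Per kilobase of exon, Cryab and Hspb3 were the abundant members. In Fezf2+/+ Cryab had 235 ± 42.8 normalized reads per kb (SD, n = 3) and Hspb3 217 ± 1.18, and the range of Cryab, 195 to 280, contained that of Hspb3. Hspb6 followed at 27.1 ± 3.25, Hspb8 at 13.1 ± 0.614, Hspb1 at 6.88 ± 5.56 and Hspb2 at 1.93 ± 0.635 per kb. Hspb8 and Hspb1 overlapped in their libraries, as the highest Hspb1 library reached 13.3 per kb, and Hspb6 stood clear of both. In Fezf2-/- the pair at the top separated, with Cryab at 336 ± 27.8 and Hspb3 at 181 ± 44.7 per kb (SD, n = 4), and in Fezf2-EnR they lay together again at 132 ± 26.2 and 136 ± 21.2 (SD, n = 2). The shared top in Fezf2+/+ depended on the length used. Per kilobase of the longest transcript in place of all exons, Cryab came to 312 (258 to 371) in Fezf2+/+, above all Hspb3 libraries, and to 174 (150 to 199) in Fezf2-EnR, where it still overlapped Hspb3 (121 to 151).

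**Figure D1:**
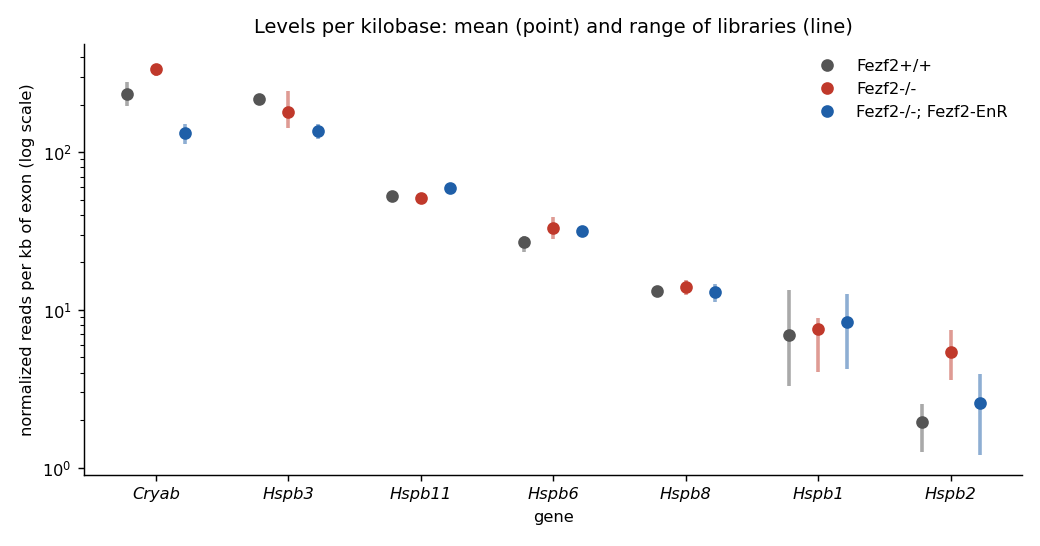
Normalized reads per kilobase of all exons on a log axis for the 6 genes and Hspb11, with the mean of each genotype as a point and the range of its libraries as a line. By this length Cryab and Hspb3 share the top in Fezf2+/+ (235 and 217) and Fezf2-EnR (132 and 136), and Cryab stands above Hspb3 in Fezf2-/- (336 and 181).

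Cryab was at 288, 342 and 414 normalized reads in the 3 Fezf2+/+ libraries, at 448, 481, 539 and 522 in the 4 Fezf2-/- libraries, and at 222 and 167 in the 2 Fezf2-EnR libraries. The 3 groups did not overlap, with Fezf2-/- on top and Fezf2-EnR at the bottom. The means were 348 ± 63.3 (SD, n = 3), 497 ± 41.2 (SD, n = 4) and 195 ± 38.8 (SD, n = 2). The Fezf2-/- mean was 1.43 times that of Fezf2+/+ (log2 difference 0.53), and the Fezf2-EnR mean was 0.559 times that of Fezf2+/+ (log2 difference -0.83) and 0.391 times that of Fezf2-/- (log2 difference -1.36). These values chose the gene, and nothing is read from their order. Of all genes tested, 62 (0.383%) had the same arrangement of libraries, every Fezf2-/- above and every Fezf2-EnR below every Fezf2+/+. In bulk cortex, fewer cells that make a transcript and less of it per cell cannot be told apart. From in situ hybridization and RNA-seq of these genotypes, the study reported Cryab as raised in Fezf2-/- cortex and restored with Fezf2-EnR. In the values here the Fezf2-EnR mean lay below that of Fezf2+/+, and the sections of the study were not examined.

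**Figure D2:**
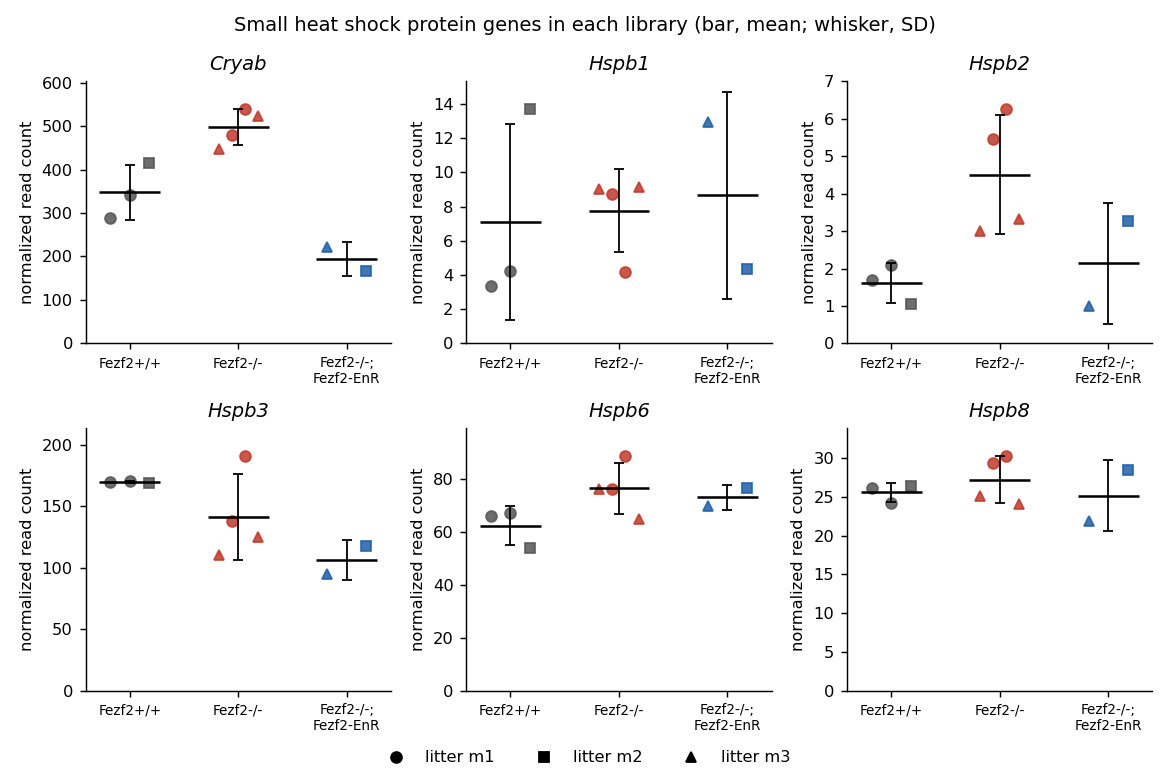
Normalized read counts of the 6 genes in each library by genotype, with the symbol showing the litter, the bar the mean and the whisker the SD. Cryab separates the genotypes (288 to 414, 448 to 539 and 167 to 222), in the order for which it was chosen. Hspb3 is nearly level in Fezf2+/+ (169 to 170) and spread in Fezf2-/- (110 to 191), and Hspb1 and Hspb2 rest on a few reads a library.

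The depth behind Cryab was 3468 reads in all, from 153 in bc209 to 629 in bc207. The values that chose the gene are given by litter as a description, from which nothing is read. In litter m1 the 2 Fezf2-/- libraries averaged 510 against 315 in the 2 Fezf2+/+ libraries (log2 difference 0.70). In litter m2 the single Fezf2-EnR library was at 167 against 414 in its Fezf2+/+ littermate (-1.30), and in litter m3 it was at 222 against a mean of 485 in 2 Fezf2-/- littermates (-1.12). Within Fezf2-/-, litters m3 and m1 differed by -0.07 on the log2 scale.

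Sex was spread unevenly, so Cryab was also set out by Xist. Among Xist-low libraries the 4 Fezf2-/- averaged 497 against 378 in the 2 Fezf2+/+ (log2 difference 0.40). Among Xist-high libraries the 2 Fezf2-EnR averaged 195 against 288 in the single Fezf2+/+ (-0.58). The lowest Fezf2+/+ library for Cryab was thus the Xist-high one, and both differences were smaller than over all libraries. With Xist as a covariate, a fit added after seeing the data, Fezf2-EnR lay below Fezf2-/- by -0.98 on the log2 scale in place of -1.36. All Fezf2-/- libraries were Xist-low and both Fezf2-EnR libraries Xist-high. The Xist term of this fit thus rests on bc201, the 1 Xist-high Fezf2+/+ library, and does not separate sex from the transgene.

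Cell types known for Cryab had markers that moved in part with it, and their part in the Cryab values was not tested. The summed level of 5 oligodendrocyte lineage markers was 4764 to 5046 in Fezf2+/+, 5434 to 5709 in Fezf2-/- and 5259 to 5275 in Fezf2-EnR. All 5 had a higher mean in Fezf2-/- than in Fezf2+/+, and 4 of 5 a lower one in Fezf2-EnR than in Fezf2-/-, with none called. The 7 markers of radial glia and astrocytes summed to 16508 to 17002, 17331 to 19532 and 17315 to 20865 in the same order of groups, with none called. Skeletal muscle, a tissue rich in CRYAB that a dissection could carry along, had 6 markers that summed to 103 to 122, 131 to 159 and 96.2 to 108, and 3 of the 6 were under the filter. These muscle sums had the same order of group means as Cryab, at a low level. The sums of endothelium, pericytes and smooth muscle, red blood cells and choroid plexus, given below, had that order too.

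Among the other marker lists limma and edgeR called no gene in Fezf2-EnR vs Fezf2+/+. DESeq2, which called 641 of 16197 genes there, called the Y-linked Ddx3y, Eif2s3y, Kdm5d and Uty. Summed levels in Fezf2+/+, Fezf2-/- and Fezf2-EnR were 2372 to 2923, 2620 to 3251 and 2471 to 2720 for endothelium, 2367 to 3522, 3096 to 3498 and 2878 to 2979 for pericytes and smooth muscle, and 782 to 916, 802 to 947 and 848 to 902 for microglia. Meningeal fibroblast markers summed to 242 to 456, 309 to 521 and 260 to 499, and among them Lum, a collagen-binding proteoglycan, was called lower in Fezf2-/- (log2 difference -2.40, SE 0.39, limma adjusted p = 0.0176) and higher in Fezf2-EnR vs Fezf2-/- (2.30, SE 0.44, adjusted p = 0.0426), where DESeq2 gave it no adjusted p. Red blood cell markers summed to 5697 to 8386, 5107 to 8883 and 4202 to 4554, and all 5 were lower at an unadjusted p under 0.05 in Fezf2-EnR against either other group. Of all genes, 19.3% vs Fezf2+/+ and 16.9% vs Fezf2-/- had such a p, in either direction. Limma called none of these 5, and DESeq2 called the globin gene Hbb-bt in Fezf2-EnR vs Fezf2-/- (adjusted p = 0.0307), where it called 454 of 16197 genes. Striatal markers summed to 1200 to 1415, 606 to 2605 and 995 to 1941, with the highest value in bc204, and choroid plexus markers stayed between 6.57 and 28.1. Emx1, a cortical progenitor and neuron factor, was called lower in Fezf2-/- (-0.44, SE 0.08, adjusted p = 0.0296).

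The listed genes of layer 6 corticothalamic neurons, the class with which the study groups Cryab, went the other way. All 8 such genes tested had a lower mean in Fezf2-/- than in Fezf2+/+, and limma called 5 of them, beside 0.858% of all genes. The 5 were Nxph3 (log2 difference -2.70), Hs3st4 (-1.98), Zfpm2 (-1.61), Syt6 (-1.60) and Tle4 (-1.55), with limma adjusted p from 3.52e-07 to 0.00593. The same 5 were called higher in Fezf2-EnR vs Fezf2-/-, where limma called 0.766% of all genes, by 2.51 in Nxph3 and 1.37 in Syt6. The list median was -1.57 in Fezf2-/- vs Fezf2+/+, beside 0.53 for Cryab, and 1.67 in Fezf2-EnR vs Fezf2-/-, beside -1.36 for Cryab. The list was chosen with earlier results of these libraries known, so it is no independent evidence of its direction. Nor does it stand for the class, as the study reported corticothalamic genes among both those reduced and those increased in Fezf2-/- cortex.

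Across the 9 libraries, the gene most like Cryab in pattern was Selo (Selenoo), an AMP-transferring selenoprotein of mitochondria, with Pearson r = 0.974 on log2 values. It was followed by Nudt18, a nucleotide hydrolase (0.972), Hr, a transcriptional corepressor (0.968), Rasgef1c, an exchange factor for small GTPases (0.965), and Klhdc8a, a kelch-repeat protein (0.960). They were taken from 12963 genes with a mean of at least 50, all points share the same 9 libraries, and by Spearman rho 3 of these 5 (Selo, Hr and Rasgef1c, each at 0.983) were among the closest 6, as ties filled the fifth place. Their amplitude was smaller than that of Cryab. The log2 difference of Fezf2-/- vs Fezf2+/+ was 0.08 in Selo, 0.14 in Nudt18, 0.19 in Hr, 0.32 in Rasgef1c and 0.19 in Klhdc8a, against 0.53 in Cryab.

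**Figure D3:**
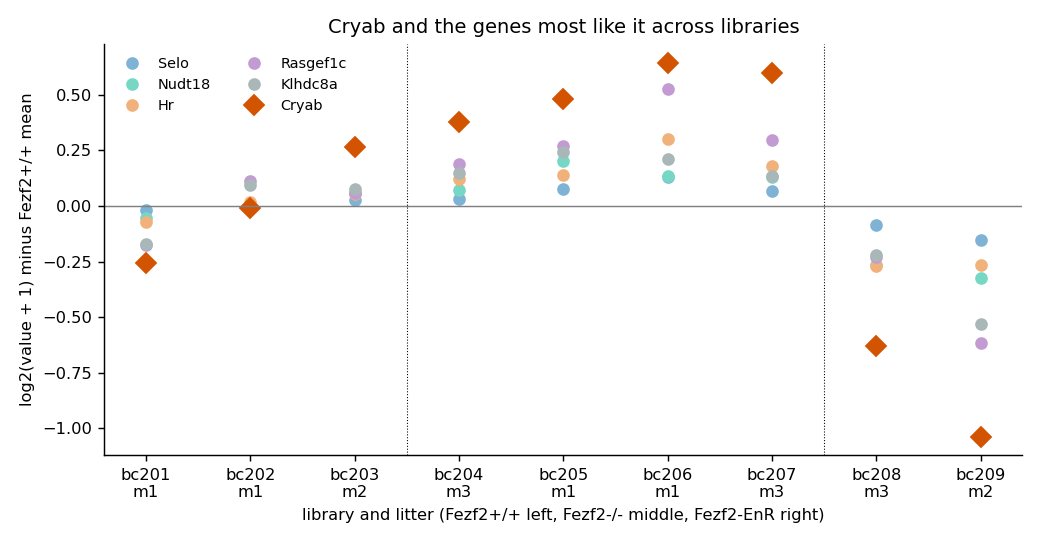
Log2(value + 1) of Cryab and of the 5 genes with the highest Pearson r to it, each minus its Fezf2+/+ mean, in the 9 libraries. All 6 genes have both Fezf2-EnR libraries (bc208, bc209) below the Fezf2+/+ mean, and Cryab spans the widest range. The low Fezf2-EnR values follow from how Cryab and the 5 genes were chosen.

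None of the other members followed Cryab closely over the 9 libraries. Pearson r of log2 values with Cryab was 0.46 for Hspb2, 0.41 for Hspb3, 0.23 for Hspb8, 0.20 for Hspb1 and 0.05 for Hspb6. The highest r between 2 members was 0.78, for Hspb2 and Hspb6, and Hspb2 holds only 27 reads in all.

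Hspb2, the opposite-strand neighbour of Cryab, was at 1.69, 2.10 and 1.05 normalized reads in Fezf2+/+, at 3.01, 5.45, 6.26 and 3.32 in Fezf2-/-, and at 1.0 and 3.28 in Fezf2-EnR. Its Fezf2-/- values were all higher than its Fezf2+/+ values, an arrangement found in 6.53% of genes tested. The summed reads were 5 (exact Poisson 95% interval 1.62 to 11.7), 18 (10.7 to 28.4) and 4 (1.09 to 10.2), which cover counting error only. The gene was not tested, because its mean was under the filter and its exons overlap Cryab. Hspb2 made up 0.470% of the reads of both genes in Fezf2+/+ (exact Clopper-Pearson 95% interval 0.153 to 1.09), 0.878% in Fezf2-/- (0.521 to 1.38) and 1.05% in Fezf2-EnR (0.288 to 2.67). These intervals overlapped, but they pool the reads of the pups in a group and also cover counting error only. Whether Hspb2 changed apart from Cryab was not tested.

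Hspb3, the partner of HSPB2 in muscle, was at 170, 170 and 169 normalized reads in Fezf2+/+, at 110, 138, 191 and 125 in Fezf2-/-, and at 94.6 and 118 in Fezf2-EnR. The Fezf2+/+ libraries were nearly equal, 3 of 4 Fezf2-/- libraries lay below them and 1 above, and both Fezf2-EnR libraries lay below. The means were 170 ± 0.924 (SD, n = 3), 141 ± 34.9 (SD, n = 4) and 106 ± 16.6 (SD, n = 2). In Fezf2-EnR vs Fezf2+/+ the log2 difference was -0.68 (SE 0.21, 95% interval -1.13 to -0.22), with an unadjusted limma p of 0.00738 and an adjusted p of 0.151 over all genes. The gene was thus not called, nor was it by edgeR (adjusted p = 0.158) or DESeq2 (adjusted p = 0.0679). An exact two-sided permutation test of the same libraries gave p = 0.1, the smallest that 10 splits allow.

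The other differences of Hspb3 were smaller. They were -0.29 in Fezf2-/- vs Fezf2+/+ (SE 0.17, limma adjusted p = 0.599) and -0.39 in Fezf2-EnR vs Fezf2-/- (SE 0.19, adjusted p = 0.338). Litter moved with Hspb3. Within Fezf2-/-, the 2 libraries of litter m3 averaged 118 against 165 in litter m1 (log2 difference -0.46), which is larger than the difference of genotypes within m1 (165 against 170, or -0.07). In litter m2 the Fezf2-EnR library was at 118 against 169 in Fezf2+/+ (-0.51), and in m3 it was at 94.6 against 118 in Fezf2-/- (-0.31). With litter as a replicate block, the difference of Fezf2-/- vs Fezf2+/+ was -0.10 (SE 0.15, limma adjusted p = 0.881) in place of -0.29. It also rested on single libraries, at -0.45 without bc206 and -0.19 without bc204. In Fezf2-EnR vs Fezf2+/+ the same block gave -0.45 (SE 0.17, limma adjusted p = 0.238) in place of -0.68. That difference was -0.52 without bc208 and -0.84 without bc209. The genes closest in pattern were Mapk11, a p38 kinase (Pearson r = 0.983 over 9 libraries), and RP23-200C3.7 (Gm2011, 0.962).

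Hspb6, a member first described in muscle, was at 65.9, 67.3 and 53.8 normalized reads in Fezf2+/+, at 76.3, 76.3, 88.6 and 64.8 in Fezf2-/-, and at 69.7 and 76.5 in Fezf2-EnR. Both Fezf2-EnR libraries lay above all Fezf2+/+ libraries, whereas the Fezf2-/- libraries overlapped them through bc207. The log2 difference was 0.29 in Fezf2-/- vs Fezf2+/+ (SE 0.15, 95% interval -0.04 to 0.62, limma adjusted p = 0.539) and 0.23 in Fezf2-EnR vs Fezf2+/+ (SE 0.18, interval -0.16 to 0.63, adjusted p = 0.507). It was -0.06 between the mutant groups (SE 0.17, interval -0.43 to 0.32, adjusted p = 0.892). Neither difference from Fezf2+/+ exceeded the spread between libraries by this test. The genes closest to Hspb6 were Hunk, a kinase, and Maml3, a Notch coactivator, with Pearson r = 0.913 for both.

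Hspb8, the partner of BAG3, was at 26.2, 24.2 and 26.4 normalized reads in Fezf2+/+, at 25.1, 29.4, 30.2 and 24.1 in Fezf2-/-, and at 21.9 and 28.4 in Fezf2-EnR. The groups overlapped in all 3 comparisons. The log2 differences were 0.08 (95% interval -0.33 to 0.49), -0.03 (-0.52 to 0.45) and -0.11 (-0.58 to 0.35) for Fezf2-/- vs Fezf2+/+, Fezf2-EnR vs Fezf2+/+ and Fezf2-EnR vs Fezf2-/-, with limma adjusted p from 0.819 to 0.952. Bag3 itself, which had the largest difference of its list in Fezf2-/- vs Fezf2+/+, was not called (0.36, SE 0.20, adjusted p = 0.576). Within Fezf2-/-, litter m3 averaged 24.6 and m1 29.8 normalized reads of Hspb8 (log2 difference -0.27). The genes closest in pattern were Zfp865 (Pearson r = 0.967) and Rpl31-ps14 (0.917), a ribosomal protein pseudogene whose reads may belong in part to its parent gene.

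Hspb1, the heat-inducible member, was at 3.38, 4.21 and 13.7 normalized reads in Fezf2+/+, at 9.04, 8.72, 4.17 and 9.14 in Fezf2-/-, and at 12.9 and 4.37 in Fezf2-EnR. One library stood far above the rest in Fezf2+/+ and in Fezf2-EnR, 3 of the 4 Fezf2-/- libraries lay between 8.72 and 9.14, and all groups overlapped. The whole of the series held 70 reads of Hspb1, from 4 to 13 a library, and the group means of 7.10 ± 5.73 (SD, n = 3), 7.77 ± 2.41 (SD, n = 4) and 8.66 ± 6.06 (SD, n = 2) were under the filter. No difference of Hspb1 was detectable at this depth.

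Of the 3 members tested besides Cryab, limma called 0 in each comparison, where it called 0.858%, 0.117% and 0.766% of all genes. At an unadjusted p under 0.05 there were 0, 1 and 0, the 1 being Hspb3 in Fezf2-EnR vs Fezf2+/+, beside 10.8%, 19.3% and 16.9% of all genes. edgeR and DESeq2 on the recovered reads also called 0, and DESeq2 gave no adjusted p for 2 of the 3 in Fezf2-EnR vs Fezf2+/+ and for 1 in Fezf2-EnR vs Fezf2-/-. Libraries did not overlap for Hspb3 (lower) and Hspb6 (higher) in Fezf2-EnR vs Fezf2+/+, as they did not for 17.3% of genes in each direction. In the other comparisons 0 of the 3 were free of overlap, beside 6.53% higher and 6.46% lower in Fezf2-/- vs Fezf2+/+, and 12% higher and 12.6% lower in Fezf2-EnR vs Fezf2-/-.

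**Figure D4:**
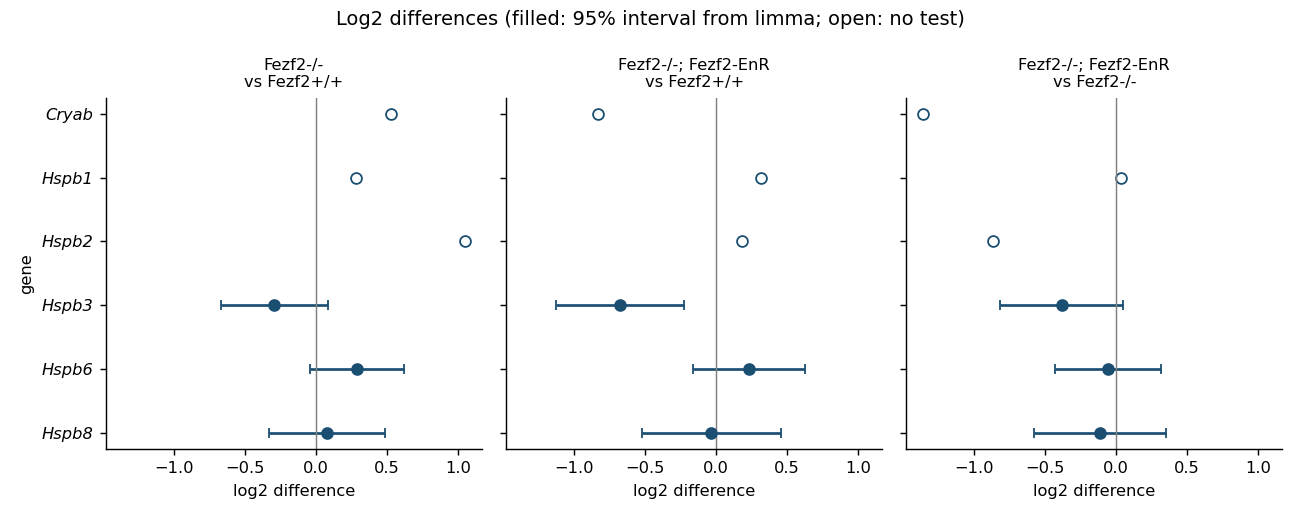
Log2 differences of the 6 genes in the 3 comparisons, with filled points and 95% intervals from limma for Hspb3, Hspb6 and Hspb8, and open points with no test for Cryab, Hspb1 and Hspb2. The intervals of Hspb6 and Hspb8 cross 0 in each comparison, and that of Hspb3 (-1.13 to -0.22) lies below 0 in Fezf2-EnR vs Fezf2+/+, where its adjusted p is 0.151.

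Of 5 further genes listed with the family, 3 were analysed here and 1, Hspb11, passed the filter. It was listed by its symbol, and whether its protein holds the alpha-crystallin domain was not examined. Hspb11, also called IFT25 and part of the ciliary transport machinery, was at 106, 106 and 113 normalized reads in Fezf2+/+, 98.1 to 114 in Fezf2-/-, and 117 and 129 in Fezf2-EnR, with no call (log2 differences -0.04, 0.18 and 0.22, limma adjusted p from 0.399 to 0.931). Hspb7, a heart and muscle member, stayed between 0 and 3.13, and Cryaa, the lens partner of CRYAB, between 0 and 1.99. Hspb7 and Cryaa were thus at or near 0 in each library.

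Genes of the wider chaperone system were not called by limma or edgeR. Over 7 lists of HSP70, HSP90, chaperonin, J-domain, BAG, heat shock factor and heat-inducible genes, 63 genes were tested and limma called 0 in each comparison. At an unadjusted p under 0.05 there were 5, 6 and 5 of 63 in Fezf2-/- vs Fezf2+/+, Fezf2-EnR vs Fezf2+/+ and Fezf2-EnR vs Fezf2-/-, which is 7.94%, 9.52% and 7.94%, under the share of all genes in each. By libraries without overlap, in the same order, 3, 8 and 8 of the 63 lay higher and 13, 9 and 6 lower. The shares over all genes were 6.53%, 17.3% and 12% higher and 6.46%, 17.3% and 12.6% lower. The 13 lower in Fezf2-/- vs Fezf2+/+ were thus above the share of all genes. edgeR called 0, 0 and 0, and DESeq2 called 0, 0 and 1, the last being Synpo, and gave no adjusted p for 0, 4 and 1 of the 63. Over all 16197 genes DESeq2 called 315, 641 and 454. Medians of the 63 log2 differences were -0.04, 0.0004 and 0.05, beside 0.53, -0.83 and -1.36 for Cryab.

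**Figure D5:**
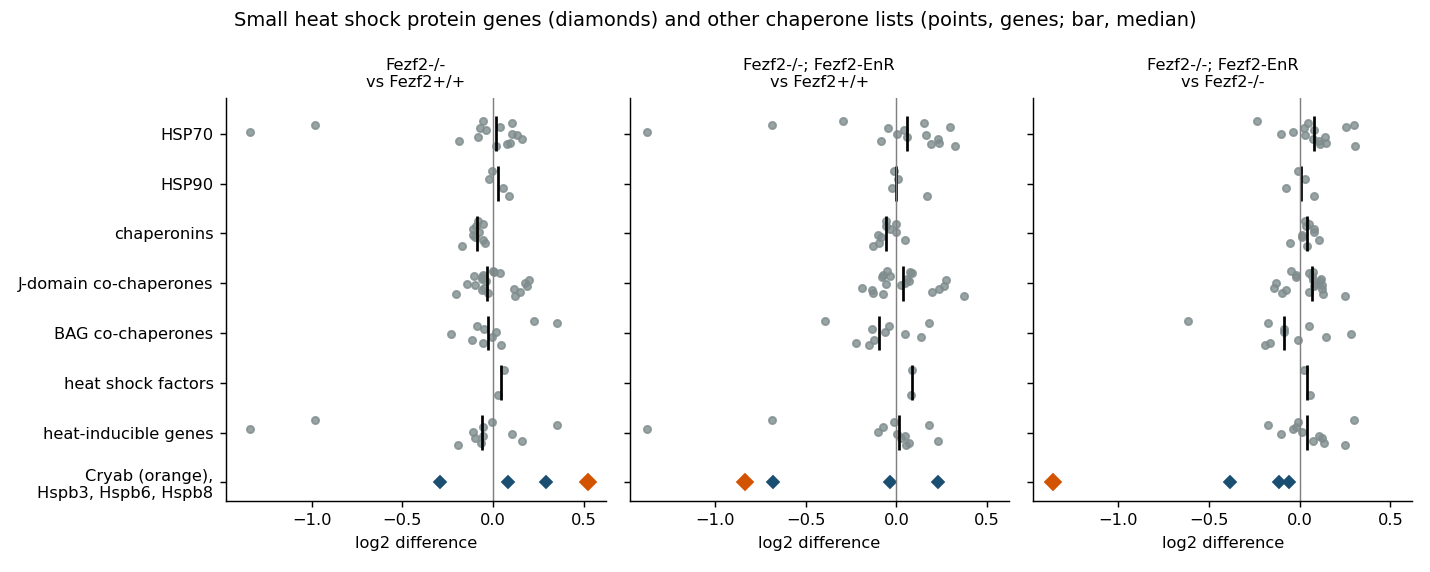
Log2 differences of the tested chaperone genes by list (points, with the median as a bar) and of Cryab (orange diamond) and Hspb3, Hspb6 and Hspb8 (blue diamonds) in the 3 comparisons. Most chaperone genes lie near 0, and the points far to the left in the comparisons with Fezf2+/+ are Hspa1a and Hspa1b.

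By limma, the largest difference of each list was not called. In the HSP70 list (15 tested) it was Hspa1b, an inducible HSP70, with -1.34 in Fezf2-/- and -1.38 in Fezf2-EnR vs Fezf2+/+ (limma adjusted p = 0.624 and 0.476), and Hspa4l with 0.31 between the mutant groups. Among 4 HSP90 genes it was Hsp90b1, the endoplasmic reticulum form, at 0.09, 0.17 and 0.08. Of the 10 chaperonin genes, all 10 had a lower mean in Fezf2-/- than in Fezf2+/+, by a median of -0.09, and Cct5 was at -0.17. Of 20 J-domain genes, Dnajc2 was at -0.20 in Fezf2-/- and Dnajb9 at 0.37 in Fezf2-EnR vs Fezf2+/+. Of 10 BAG and handover genes, Synpo was at -0.39 and -0.62 in Fezf2-EnR vs Fezf2+/+ and vs Fezf2-/-, the second with an adjusted p of 0.141 by limma and 0.0434 by DESeq2. Hsf1 and Hsf2, the factors that drive heat-inducible genes, differed by at most 0.09 (Hsf1 in Fezf2-EnR vs Fezf2+/+).

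Hspa1b followed the litters. It was at 295, 341, 215 and 339 normalized reads in the 4 libraries of litter m1, at 171 and 249 in m2, and at 28.1, 50.7 and 38.8 in m3. Each m3 library lay below all others, in Fezf2-/- and in Fezf2-EnR alike, and m3 held no Fezf2+/+ library. Hspa1a, a near-identical copy with which it can share reads, did the same, at 20.1, 28.2 and 34.9 in m3 and 76.9 to 130 elsewhere. Cryab was at 448 and 522 in the Fezf2-/- libraries of m3 and at 481 and 539 in those of m1.

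Intermediate filament genes, whose proteins are clients of CRYAB, gave no call by limma or edgeR among 12 tested. At an unadjusted p under 0.05 there were 4 of 12 in Fezf2-/- vs Fezf2+/+ (all lower), 2 in Fezf2-EnR vs Fezf2+/+ (higher) and 4 in Fezf2-EnR vs Fezf2-/- (higher), beside 10.8%, 19.3% and 16.9% of all genes. DESeq2 called Nefl, Nes and Ina, 1 in each comparison in that order, beside 315, 641 and 454 of all 16197 genes. It gave no adjusted p for 3 of the 12 in each comparison with Fezf2-EnR. The list medians were 0.01, 0.0031 and 0.24. The largest differences were in Prph, a peripheral neuron filament, at -0.82 and -0.57 in the comparisons with Fezf2+/+, and in Des, the muscle filament desmin, at -0.64 in Fezf2-EnR vs Fezf2-/-. Gfap, the astrocyte filament that binds CRYAB, was at 264 to 332 normalized reads in Fezf2+/+, 268 to 316 in Fezf2-/- and 228 to 319 in Fezf2-EnR, and its groups overlapped.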

How the data were processed

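Values were taken from the table of normalized read counts that the authors deposited, a signal in which reads per gene were divided by a size factor of each library. The submitters' processing notes name mm10, Bowtie, STAR and DESeq, without versions. The counting tool and its use of strand are not given in the sources used here. The 9 columns were mapped to genotypes and litters by name. Genes with a mean of at least 10 were tested on log2(value + 1) with limma 3.58.1, with 1 coefficient per genotype, a trended variance and Benjamini-Hochberg adjustment over all genes tested. Fold changes on this scale understate low genes. Whole reads were recovered from the step of each library, and edgeR 4.0.16 and DESeq2 1.42.0 were run on them. Exact permutation tests used SciPy 1.17.1 and the size of the difference of mean log2 values. Because both hemispheres of 1 pup gave 1 library, p-values measure the spread between pups.

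Members, lists and comparisons were chosen with earlier results of these data known. Named genes are the members, other genes listed with the family, the called gene or genes and the largest difference of each list, the 5 genes most like Cryab and the 2 most like each other tested member, and Fezf2. Gfap, Hspa1a, Gm9817, genes that DESeq2 alone called and the Xist and litter values were added after their values were seen. Levels per kilobase used the union of exons in GENCODE M21. The limma step was tested on simulated data of 16197 genes, where in Fezf2-/- vs Fezf2+/+ it called 24 of 50 genes changed 1.5-fold and 40 of 50 changed 2-fold, and in Fezf2-EnR vs Fezf2+/+ 24 and 35 of 50. Other pseudocounts, filters, scalings, fits, the litter given in the labels as a block, and fits without each library were tried.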

Additional observations from a re-analysis of the deposited data

Results flagged for a closer look

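Hspb1 in Fezf2-/- had 1 library far from the others of its group. Library bc206 was at 4.17 normalized reads (4 reads), against 9.04, 8.72 and 9.14 (8 to 11 reads) in the other 3, and the gap to the nearest of them was 0.916 of the whole range. Among the 6 genes looked at in this group of 4 libraries it was the only one. Chance marks about 1 in 20 such groups by the nominal rate of the rule, which was not computed for counts this low. With 4 reads against 8 to 11, counting error was not separated from a difference between pups.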

How the results depend on the processing

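The fit with litter as a replicate block turned the sign of Hspb8 in Fezf2-EnR vs Fezf2+/+ (0.092 in place of -0.03) and of Hspb6 in Fezf2-EnR vs Fezf2-/- (0.059 in place of -0.06), and called 32 genes in place of 19 in Fezf2-EnR vs Fezf2+/+. It also moved Hspb3 to -0.10 and Hspb8 to 0.24 in Fezf2-/- vs Fezf2+/+ (from -0.29 and 0.08). In Fezf2-EnR vs Fezf2+/+ it moved Hspb3 to -0.45 (from -0.68) and Hspb6 to 0.41 (from 0.23). It changed no call of a member. Genes called in Fezf2-/- vs Fezf2+/+, 139 in the report, came to 221 with only the 2 groups compared, 233 in litter m1 alone, 66 with Xist as a covariate (added after seeing the data) and 315 by DESeq2. Those in Fezf2-EnR vs Fezf2+/+ came to 10 at a mean of at least 50, 12 with only the 2 groups and 641 by DESeq2, and those in Fezf2-EnR vs Fezf2-/- (124) to 67 with only the 2 groups, 11 with the Xist covariate and 454 by DESeq2. With the Xist covariate Cryab differed by -0.58 in Fezf2-EnR vs Fezf2+/+ and by -0.98 in Fezf2-EnR vs Fezf2-/-. Both values rest on bc201, the 1 Xist-high Fezf2+/+ library. Leaving out 1 library at a time gave 66 (without bc201) to 217 (without bc209) genes, 8 (without bc209) to 491 (without bc208), and 21 (without bc209) to 1088 (without bc208) for the 3 comparisons. It gave -0.214 to 0.147 for Hspb8 and -0.134 to 0.0148 for Hspb6 in the 2 comparisons named above, and -0.295 to 0.0664 for Hspb8 in Fezf2-EnR vs Fezf2-/-. For Hspb3 it gave -0.446 (without bc206) to -0.185 (without bc204) in Fezf2-/- vs Fezf2+/+ and -0.544 (without bc209) to -0.227 (without bc208) in Fezf2-EnR vs Fezf2-/-. In Fezf2-EnR vs Fezf2+/+ the range for Hspb3 was -0.836 (without bc209) to -0.52 (without bc208). The cause of these shifts was not tested, and a lone Fezf2-EnR library was then assumed to vary like the others. Of the alternative values of the 4 members that passed the filter, 233 kept their direction and their side of the threshold, or for Cryab stayed within 1 SD, 6 reversed and 2 moved. Per kilobase of the longest transcript, Cryab came to 312, above Hspb3 (217), Hspb6 to 31.5 and Hspb8 to 14.1 in Fezf2+/+. Depth limits Hspb1 and Hspb2, with 70 and 27 reads in all.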
